A study of Mus musculus with 3 samples.

Results

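Transcripts of 5 growth factors linked to tissue repair (Areg, Hbegf, Csf1, Vegfa and Tgfb1) were followed in single lymphocytes of the mouse lung. The members were chosen by symbol and are 5 of the 32285 genes in the count tables. All cells came from perfused and enzyme-digested lungs of mice with a GFP reporter of GFI1B, a transcriptional repressor active in blood cell formation. Every sort kept live CD45+ lin- cells that carry CD90.2 and IL-7R, as innate lymphoid cells (ILC) do, and was sequenced with 10x Chromium 3' chemistry. The 3 groups were 1 library each: the IL-18R- ST2+ library, the IL-18R+ pool, and a library whose sort was labelled IL-18R- CD103- GFP-, called the library labelled all-negative hereafter. The pool mixes IL-18R+ CD103+ GFP- cells with IL-18R+ CD103- GFP+ cells, and its barcodes carry no mark of either sort. How many mice were used, and their age and sex, is not given in the sources used here. With 1 library per group there is no replicate check: no difference below has a p value, and every interval is a 95% interval for counting error.

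Amphiregulin (Areg) and heparin-binding EGF-like growth factor (Hbegf) are membrane-anchored ligands of the EGF receptor, released by metalloproteases such as Adam17, and promote regrowth of epithelium. Csf1 is the growth factor of monocytes and macrophages, Vegfa drives growth and leakiness of blood vessels, and Tgfb1 is a latent cytokine that governs matrix deposition and restrains immune cells once activated. Group 2 innate lymphoid cells (ILC2), which carry the IL-33 receptor ST2 (gene Il1rl1) and release IL-5 and IL-13, are known in the lung as a source of amphiregulin after injury.

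After filtering, 1622 of 1760, 1659 of 1688 and 1883 of 1903 barcodes remained in the ST2+ library, the pool and the library labelled all-negative, with medians of 4568, 4932 and 4772 UMIs per cell. Lineages were gated on markers that include no member. ILC2 (Il1rl1 and Gata3 detected, CD3 at most 1 UMI) numbered 1035 cells in the ST2+ library, 11 in the pool and 11 cells in the library labelled all-negative. Gamma delta T cells (CD3 and Trdc without Trac) numbered 13, 703 and 1202, and alpha beta T cells (CD3 and Trac without Trdc) 16, 226 and 100. A further 158 pool cells had no UMI of CD3, Trac or Trdc and did not pass the ILC2 gate. Cells with markers of myeloid, B, stromal, mast or erythroid cells (203, 247 and 129) were set aside, and 355, 314 and 441 cells passed no gate. Il18r1 went against 1 label: gamma delta T cells of the pool had 755.1 UMIs of it per 1000000 UMIs (UPM) and those of the library labelled all-negative 608.9 UPM, so directions against that library are directions against a label. The library pairs shared 0, 0 and 1 barcodes.

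The ST2+ library held more Areg and Csf1 transcript, and less Hbegf and Vegfa, than either other library, while Tgfb1 differed by less than 2-fold. A gene was called between groups at a ratio of at least 2 where either side reached 20 UPM. Against the pool, 2 members were called higher in the ST2+ library, where 4.34% of all measured genes were, and 2 were called lower, where 12.3% were. Against the library labelled all-negative the same 2 members were higher (5.4% of measured genes) and the same 2 lower (9.61%). These 2 comparisons share the ST2+ library. Between the pool and the library labelled all-negative, 0 members were called in either direction, against 3.34% of measured genes (2.55% higher and 0.792% lower in the pool). Csf1 stayed under 20 UPM in both. TMM scaling would raise every log2 ratio of the ST2+ library by 0.28 against the pool and by 0.14 against the library labelled all-negative, and under it the calls of the members stayed as they are.

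**Figure D1:**
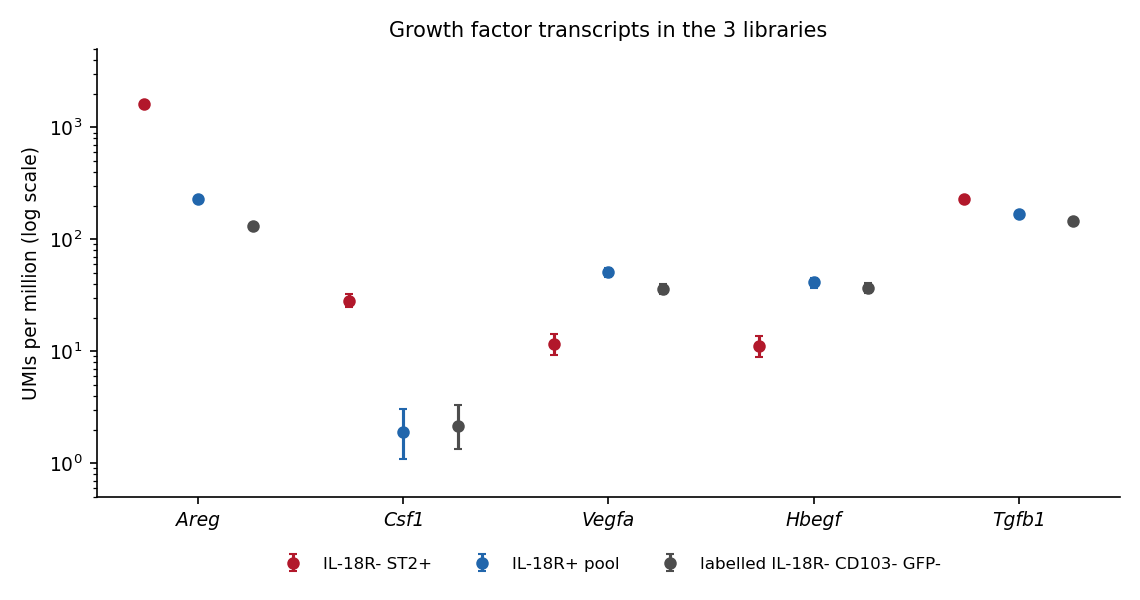
Levels of the 5 growth factor transcripts in UPM on a log axis, summed over the kept cells of the IL-18R- ST2+ library, the IL-18R+ pool and the library labelled all-negative. Bars are 95% Poisson intervals: Areg and Csf1 were highest in the ST2+ library, at 1637 and 28.2 UPM, and Vegfa and Hbegf lowest there.

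Areg stood at 1637 UPM (1609 to 1665) in the ST2+ library, against 227.2 UPM (217.5 to 237.3) in the pool and 131.9 UPM (124.8 to 139.3) in the library labelled all-negative. The intervals of the 3 libraries do not overlap. The ST2+ library was 7.21-fold (6.88 to 7.55) above the pool and 12.4-fold (11.7 to 13.2) above the library labelled all-negative. A library sum cannot tell more cells with the transcript from more transcript per cell, so shares of cells were read as well. At least 1 Areg UMI was seen in 70.0% of cells of the ST2+ library, 18.0% of pool cells and 12.2% of the library labelled all-negative. With every cell thinned to 2000 UMIs the shares were 60.7%, 12.6% and 8.42%. Immediate early transcripts, which rise on cell stress and dissociation, moved the same way: the 22 genes of that list summed to 19873, 14331 and 12302 UPM. Their part in the Areg result was not tested.

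By lineage, Areg stood at 1723 UPM (1687 to 1760) in ILC2, against 667.4 UPM (619.2 to 718.3) in CD3-negative pool cells, 146.7 UPM (130.6 to 164.2) in alpha beta T cells and 99.8 UPM (93.5 to 106.4) in gamma delta T cells. ILC2 were 2.58-fold (2.39 to 2.79) above CD3-negative pool cells, 11.8-fold (10.5 to 13.2) above alpha beta T cells and 17.3-fold (16.1 to 18.5) above gamma delta T cells. At 2000 UMIs per cell an Areg UMI was found in 62.6% of ILC2, 43.9% of CD3-negative pool cells, 9.09% of alpha beta T cells and 6.74% of gamma delta T cells. The order of ILC2, then CD3-negative cells, then T cells held for level and share alike. Of 1057 ILC2, 1035 came from the ST2+ library, and most T cells came from the other libraries. Lineage and library therefore cannot be told apart in comparisons of ILC2 with other lineages, here and below. The 13 gamma delta T cells of the ST2+ library held 20 Areg UMIs. The 703 of the pool held 356, and the 1202 of the library labelled all-negative 557. In the pool, 11 ILC2 held 94 Areg UMIs, against 711 in the 158 CD3-negative cells. The immediate early sum was 20444 UPM in ILC2, 11600 in CD3-negative pool cells, 10856 in alpha beta T cells and 13587 in gamma delta T cells. Its part in the Areg levels of these lineages was not tested.

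Several of these values rest on few cells. Of the 301 Areg UMIs in alpha beta T cells, 145 came from 16 cells of the ST2+ library, which also held 940.1 UPM of Il1rl1. Without them alpha beta T cells stood at 80.1 UPM (68.0 to 93.7), below gamma delta T cells. The 11 ILC2 of the library labelled all-negative held 206 Areg UMIs, of which 168 were in 1 cell. Shares of T cells with Areg lay within the interval of another cell class: among 72 cells with myeloid markers and no CD3 or Il1rl1 (median 4755 UMIs, against 4663 in gamma delta T cells), 8.96% (3.36 to 18.5) had an Areg UMI after thinning. No ambient profile was measured, and the part of free RNA in the T cell values was not tested. Among 1905 gamma delta T cells of the pool and the library labelled all-negative, 1718 had no Areg UMI, 29 had 6 to 20 and 11 had more than 20. The 1035 ILC2 of the ST2+ library were uneven: 297 had no Areg UMI, 117 had 1, and 123 (11.9%) had more than 20.

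Areg lies on chromosome 5 at 91139599 to 91148432 (plus strand, GENCODE M21 on GRCm38). The promoters of Areg, Csf1 and Vegfa are shown because these 3 members were called higher in ILC2 or CD3-negative pool cells than in gamma delta T cells. Each line gives the 250 bases before the RefSeq start (GRCm38.p6), with a matched motif in capitals.
Areg, chr5:91139349-91139598, plus strand: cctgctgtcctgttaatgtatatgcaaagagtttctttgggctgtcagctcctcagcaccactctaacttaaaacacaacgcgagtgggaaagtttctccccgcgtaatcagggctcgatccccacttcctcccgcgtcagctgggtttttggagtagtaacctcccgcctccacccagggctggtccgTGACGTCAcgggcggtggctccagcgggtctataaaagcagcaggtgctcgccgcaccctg
Csf1, chr3:107760470-107760719, minus strand: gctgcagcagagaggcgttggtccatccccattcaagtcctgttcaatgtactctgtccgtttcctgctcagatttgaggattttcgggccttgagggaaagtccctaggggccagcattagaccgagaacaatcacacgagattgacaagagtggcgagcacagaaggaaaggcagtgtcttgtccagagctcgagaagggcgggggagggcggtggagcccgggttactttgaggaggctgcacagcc
Vegfa, chr17:46032378-46032627, minus strand: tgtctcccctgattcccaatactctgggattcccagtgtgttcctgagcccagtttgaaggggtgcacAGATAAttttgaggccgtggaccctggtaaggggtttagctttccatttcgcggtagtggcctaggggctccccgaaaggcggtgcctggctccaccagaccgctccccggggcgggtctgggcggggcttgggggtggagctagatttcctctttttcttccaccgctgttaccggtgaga
The capitals in Areg are the cyclic AMP response element TGACGTCA, 61 bases before the start, a motif held by 1.55% of 32851 promoter windows of this length. The capitals in Vegfa are the GATA motif AGATAA, 182 bases before the start and held by 9.99% of windows. Both strands were searched, also for the AP-1 motif TGANTCA (6.75% of windows) and the hypoxia core ACGTG (16.6%), and these windows held no other match. The Tgfb1 window held no match of the 4 motifs. RefSeq gives Vegfa a second start, whose window held ACGTG 211 bases before it. A match is a string in the window and says nothing of binding. Of the 5 members, 4 matched an entry of the promoter table (Hbegf had none).

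Hbegf, the other EGF receptor ligand, ran opposite to Areg between the ST2+ library and the others, and between ILC2 and gamma delta T cells. It stood at 11.2 UPM (8.97 to 13.8) in the ST2+ library, against 41.2 UPM (37.1 to 45.6) in the pool and 37.0 UPM (33.3 to 41.0) in the library labelled all-negative. The ratio of the ST2+ library was 0.271 (0.213 to 0.342) to the pool and 0.302 (0.237 to 0.382) to the library labelled all-negative. By lineage, Hbegf was 11.3 UPM (8.55 to 14.6) in ILC2 and 0.939 UPM, a single UMI, in the 158 CD3-negative pool cells, against 14.6 UPM (9.87 to 20.9) in alpha beta T cells and 48.0 UPM (43.7 to 52.7) in gamma delta T cells. ILC2 were thus at 0.235 times (0.175 to 0.310) the level of gamma delta T cells. ILC2 and alpha beta T cells both stayed under 20 UPM, and their intervals overlap. Gamma delta T cells, 42.4% of pool cells, held 53.4% of the Hbegf UMIs of the pool, and for the library labelled all-negative they were 63.8% of cells with 69.9% of the UMIs. At 2000 UMIs per cell an Hbegf UMI was found in 7.42% of gamma delta T cells, and in the pool in 8.86% (6.86 to 11.2), against 0% (0 to 2.32) of 157 CD3-negative cells of the same library.

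**Figure D2:**
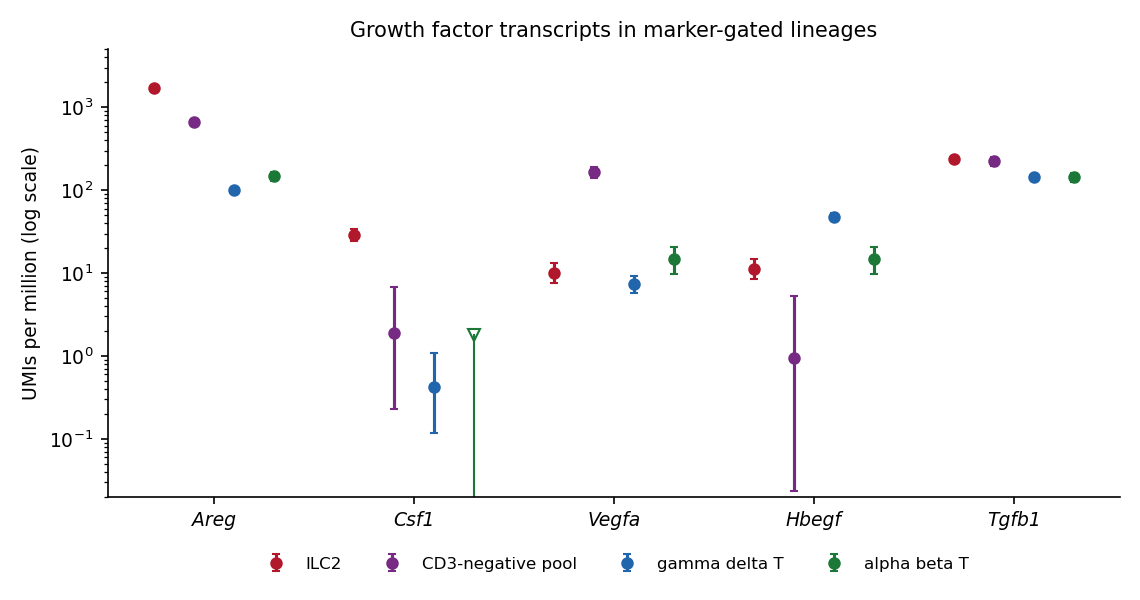
Levels of the 5 growth factor transcripts in UPM on a log axis, in ILC2, CD3-negative pool cells, gamma delta T cells and alpha beta T cells, with 95% Poisson intervals; the open triangle is the upper limit for Csf1 in alpha beta T cells, which had 0 UMIs. Areg and Csf1 were highest in ILC2, Vegfa in CD3-negative pool cells (164.3 UPM) and Hbegf in gamma delta T cells (48.0 UPM), while Tgfb1 lay between 142.3 and 237.2 UPM.

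Within gamma delta T cells, Hbegf followed Cd163l1, a scavenger receptor gene of IL-17-producing gamma delta T cells. In the pool it stood at 66.3 UPM (57.1 to 76.5) in the 602 cells with a Cd163l1 UMI, against 21.05 UPM (10.5 to 37.7) in the 101 cells without. In the library labelled all-negative it stood at 59.1 UPM (51.9 to 67.0) in 916 cells with Cd163l1, against 3.36 UPM (1.23 to 7.31) in 286 cells without. The cells without Cd163l1 were the deeper ones, with medians of 4903 and 6110 UMIs, against 4636 and 4404 in cells with it. Split by Il17a, the cytokine gene itself, the pool gave 74.7 UPM (62.5 to 88.5) with and 41.6 UPM (32.1 to 53.0) without, and the library labelled all-negative 63.6 UPM (52.4 to 76.5) with and 33.3 UPM (28.0 to 39.4) without. Cells of both libraries were also split by Ccl5, a chemokine gene of cytotoxic lymphocytes, and the pool values are not given here. In the library labelled all-negative, Hbegf stood at 3.48 UPM (1.28 to 7.58) in cells with Ccl5, against 58.2 UPM (51.1 to 66.0) in cells without. Areg split in the same direction there, with 127.1 UPM (116.5 to 138.5) in cells with Cd163l1 and 16.8 UPM (11.3 to 24.0) in cells without. In the pool the Areg levels were 113.4 UPM (101.3 to 126.5) with and 68.9 UPM (48.2 to 95.4) without, while the thinned shares were 6.50% and 7.0%. These splits, and those of CD3-negative cells below, were chosen after the values were seen and are descriptions.

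Csf1, the macrophage growth factor (chromosome 3 at 107741048 to 107760469, minus strand), was found mainly in ILC2 among the gated lymphocytes. It stood at 28.2 UPM (24.7 to 32.2) in the ST2+ library, against 1.89 UPM (1.10 to 3.02) in the pool and 2.16 UPM (1.34 to 3.31) in the library labelled all-negative. The ST2+ library was 14.9-fold (9.13 to 26.1) above the pool and 13.1-fold (8.34 to 21.5) above the library labelled all-negative. Most of the few UMIs outside the ST2+ library lay in cells with markers of other lineages, 82.4% for the pool and 85.7% for the library labelled all-negative, where 1 cell held 14. Without cells of outside markers the ratios were 70.9 and 85.8.

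ILC2 held 145 Csf1 UMIs, or 28.7 UPM (24.2 to 33.8), against 2 UMIs in CD3-negative pool cells, 0 in alpha beta T cells and 4 in gamma delta T cells. The level in ILC2 was 15.3-fold (4.16 to 127.5) above CD3-negative pool cells and 67.1-fold (25.7 to 249.6) above gamma delta T cells. Against the 0 UMIs of alpha beta T cells the ratio was 19.6 with a floor of 3 UMIs over the group. The lower end of its interval was 15.8. In ILC2 of the ST2+ library, 116 of 1035 cells had a Csf1 UMI, 96 of them a single one, and the highest cell had 5. After thinning the share was 6.73% (5.27 to 8.43), against 0.158% of gamma delta T cells. The 0 UMIs in 342 alpha beta T cells allow a share of cells with a UMI of up to 0.877% (3 counts of the total), which does not limit the share of cells that express the gene at a low level.

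Vegfa, the endothelial growth factor (chromosome 17 at 46016993 to 46032369, minus strand), was low in ILC2 and high in CD3-negative cells. It stood at 11.6 UPM (9.31 to 14.2) in the ST2+ library, against 51.0 UPM (46.4 to 55.9) in the pool and 36.3 UPM (32.6 to 40.3) in the library labelled all-negative. The ratio of the ST2+ library was 0.226 (0.179 to 0.284) to the pool and 0.318 (0.250 to 0.402) to the library labelled all-negative. By lineage, ILC2 had 10.1 UPM (7.52 to 13.3) and CD3-negative pool cells 164.3 UPM (140.8 to 190.5), against 14.6 UPM (9.87 to 20.9) in alpha beta T cells and 7.38 UPM (5.74 to 9.34) in gamma delta T cells. ILC2 stood at 0.0615 times (0.0441 to 0.0844) the level of CD3-negative pool cells, and CD3-negative pool cells 22.3-fold (16.8 to 29.9) above gamma delta T cells. The intervals of ILC2 overlap those of both T cell lineages, and the 10 highest alpha beta T cells held 96.7% of the UMIs of theirs. At 2000 UMIs per cell a Vegfa UMI was found in 21.02% (14.9 to 28.2) of CD3-negative pool cells, against 1.00% (0.403 to 2.05) of gamma delta T cells of the same library.

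**Figure D3:**
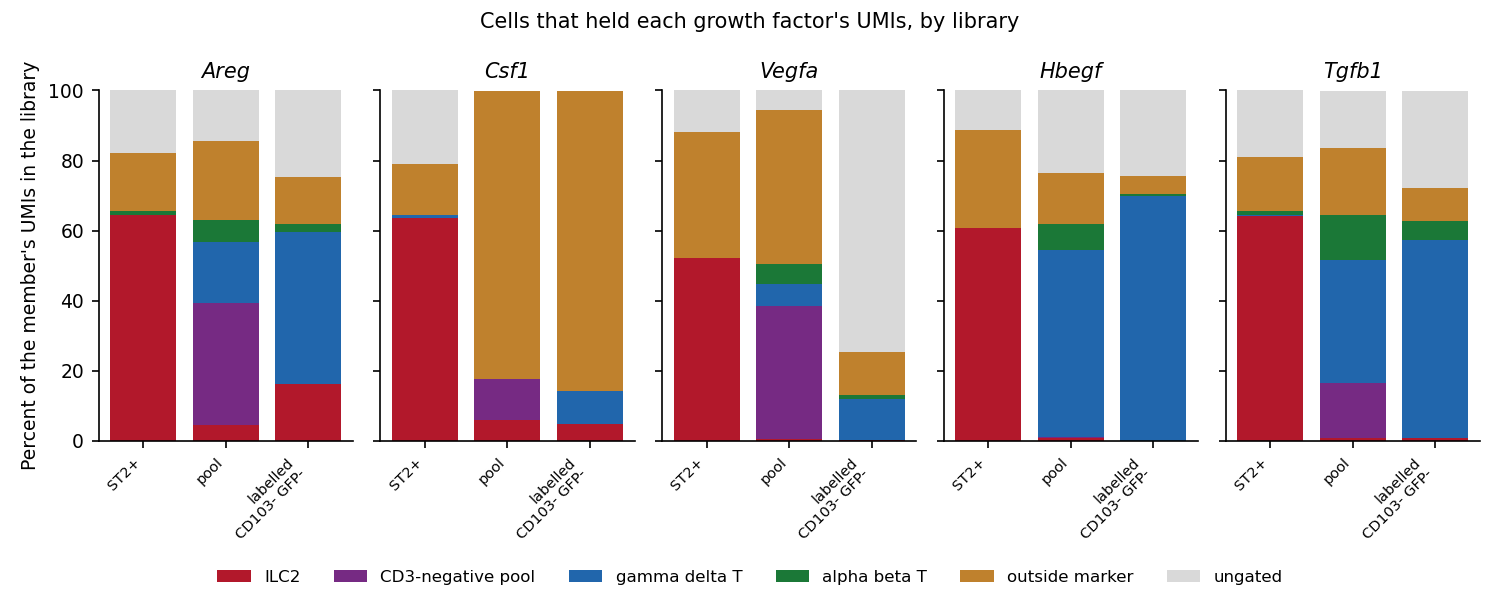
Percent of each growth factor's UMIs in each library that lay in ILC2, CD3-negative pool cells, gamma delta T cells, alpha beta T cells, cells with outside markers and cells that passed no gate. ILC2, 63.8% of cells of the ST2+ library, held 64.4% of its Areg UMIs. In that library Il1rl1 was also found in 85.7% of cells with outside markers and 80% of cells that passed no gate. Gamma delta T cells, 63.8% of cells of the library labelled all-negative, held 69.9% of its Hbegf UMIs. The CD3-negative gate was drawn in the pool alone, so such cells count as ungated elsewhere.

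The 158 CD3-negative cells were 9.52% of the pool and held 38.1% of its Vegfa and 34.8% of its Areg UMIs. Of the pool's Vegfa UMIs, another 44.0% lay in cells with outside markers: the 105 pool cells with stromal, endothelial or epithelial markers and no CD3 or Il1rl1 stood at 226.5 UPM (193.6 to 263.5). The CD3-negative cells are not named further here. Il18r1 was found in 93.7% of them, Il7r in 98.1%, Gata3 in 62.0%, Ccr10 in 28.5%, Ncr1 in 13.3% and Il1rl1 in 2.53%. They held Trbc1 in 82.3% and Trbc2 in 66.5% of cells, and ILC2 of the ST2+ library held the same transcripts in 71.4% and 74.0%, so T cells with undetected CD3 cannot be told apart by these chains.

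The same gate in the library labelled all-negative gave 127 cells, and Vegfa was high there too. The pool cells had 164.3 UPM of Vegfa, against 315.4 UPM (273.7 to 361.7) in the library labelled all-negative, a ratio of 0.521 (0.423 to 0.640). Areg ran the other way, with 667.4 UPM in the pool cells against 270.8 UPM (232.3 to 313.9), a ratio of 2.46 (2.09 to 2.92). Areg was thus the member called between these cells (higher, as for 4.54% of measured genes), while 5.55% of genes were lower. Tgfb1 stood at 222.5 UPM in the pool cells and 218.5 UPM in the others. The immediate early sum was 11600 UPM in the pool cells and 17059 UPM in the others, and its part in these differences was not tested.

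Within CD3-negative cells, Vegfa varied with markers of ILC subsets. In the pool it stood at 396.1 UPM (303.7 to 507.8) in the 21 cells with Ncr1, a receptor of natural killer cells and some ILC, against 124.3 UPM (102.5 to 149.5) in the 137 without. Cells with Xcl1, a chemokine gene of the same cells, gave 404.6 UPM (300.3 to 533.5), against 132.7 UPM (110.5 to 158.1) without. In the library labelled all-negative the split by Ncr1 was not seen, at 297.7 UPM (208.5 to 412.2) with and 319.5 UPM (273.1 to 371.4) without, and that by Xcl1 was smaller, at 414.3 UPM (318.3 to 530.0) and 285.2 UPM (240.2 to 336.2). Cells with Il17rb, the receptor of IL-25, had less Vegfa in both: 75.3 UPM (49.2 to 110.4) against 206.9 UPM (175.0 to 242.9) without it in the pool, and 115.8 UPM (53.0 to 219.9) against 342.5 UPM (296.2 to 394.0) in the library labelled all-negative. In that library Vegfa stood at 909.4 UPM (701.9 to 1159) in the 13 cells with Il22, a cytokine gene of group 3 ILC, against 242.0 UPM (203.6 to 285.6) in the 114 without. These are few cells, and 1 CD3-negative cell of that library held 22 of the 205 Vegfa UMIs. The split of pool cells by Il22, and splits by further markers, are not given here. Areg in pool cells ran against Vegfa by Ncr1, at 345.0 UPM (259.2 to 450.2) with and 722.9 UPM (668.6 to 780.3) without, and did not separate by Il17rb, at 695.3 UPM (610.1 to 789.1) and 654.0 UPM (596.2 to 715.8).

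**Figure D4:**
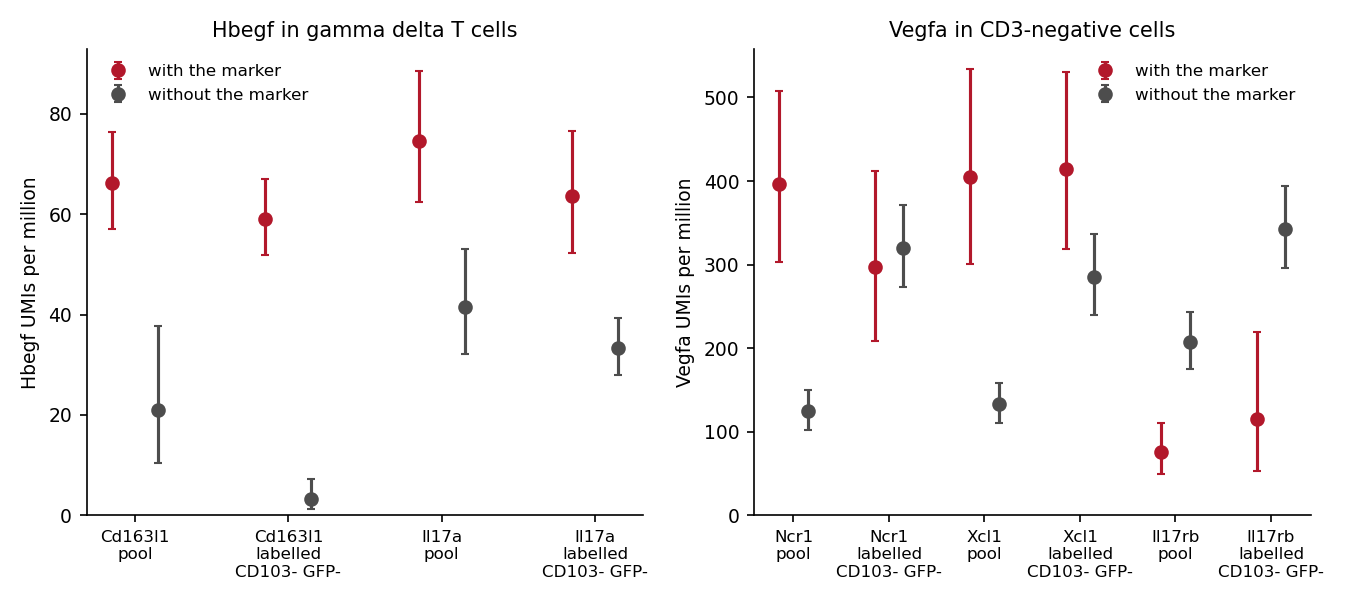
Left, Hbegf in gamma delta T cells with and without a UMI of Cd163l1 or Il17a; right, Vegfa in CD3-negative cells with and without a UMI of Ncr1, Xcl1 or Il17rb, in UPM with 95% Poisson intervals, for the IL-18R+ pool and the library labelled all-negative. Hbegf was higher with Cd163l1 in both libraries, and Vegfa was lower with Il17rb in both but higher with Ncr1 in the pool alone.

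Tgfb1 (chromosome 7 at 25687002 to 25705077, plus strand) was found in every lineage. It stood at 229.7 UPM (219.3 to 240.5) in the ST2+ library, against 169.9 UPM (161.5 to 178.6) in the pool and 146.8 UPM (139.3 to 154.6) in the library labelled all-negative, ratios of 1.35 (1.26 to 1.45) and 1.57 (1.46 to 1.68). By lineage it was 237.2 UPM (224.0 to 251.0) in ILC2 and 222.5 UPM (195.0 to 252.6) in CD3-negative pool cells, against 142.3 UPM (126.5 to 159.6) in alpha beta T cells and 144.6 UPM (137.0 to 152.6) in gamma delta T cells. ILC2 and CD3-negative cells overlap, as do the T cell lineages, and ILC2 were 1.64-fold (1.52 to 1.77) above gamma delta T cells. At 2000 UMIs per cell a Tgfb1 UMI was found in 36.6% of ILC2 and 33.8% of CD3-negative pool cells, against 23.2% of alpha beta T cells and 24.0% of gamma delta T cells.

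Counted over the members, ILC2 against gamma delta T cells gave 2 higher (Areg and Csf1; 5.7% of measured genes) and 1 lower (Hbegf; 11.5%), with Tgfb1 not called and Vegfa below the level minimum. Against alpha beta T cells ILC2 gave 2 higher, Areg and Csf1 (6.02% of measured genes), and 0 lower (9.77%). Vegfa and Hbegf were below the level minimum in that comparison. Against CD3-negative pool cells ILC2 gave the same 2 higher (5.25%) and Vegfa lower (14.3%), so 3 members in either direction (19.5%). Hbegf was below the level minimum there. CD3-negative pool cells against gamma delta T cells gave Areg and Vegfa higher (7.25%) and Hbegf lower (5.6%). Between the pool and the library labelled all-negative, gamma delta T cells gave 0 members called (1.74% in either direction, 0.478% higher in the pool). Csf1 and Vegfa were below the level minimum there, as they were in alpha beta T cells. Alpha beta T cells gave Areg and Hbegf higher in the pool (10.1%) and 0 lower (3.83%), with Hbegf resting on 28 UMIs in the pool and 2 UMIs in the library labelled all-negative.

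Within ILC2 of the ST2+ library, cells with an Il5 or Il13 UMI held more Areg. After thinning, 224 cells had such a UMI and 802 did not, and 9 cells under 2000 UMIs were left out. An Areg UMI was found in 73.7% (67.4 to 79.3) of cells with Il5 or Il13, against 59.4% (55.9 to 62.8) of cells without, and its level was 2196 UPM (2061 to 2338) against 1519 UPM (1460 to 1581), a ratio of 1.45 (1.34 to 1.56). The intervals of the 2 classes do not overlap, and the ratio stays under the 2-fold that calls a gene. Of all genes measured between these cells, 0.641% passed 2-fold in either direction (0.33% higher and 0.311% lower with Il5 or Il13), and 0 of the members did. Before thinning the classes held 309 and 726 cells, with median depths of 5060 and 4398 UMIs and Areg shares of 84.8% and 65.6%. The immediate early sum was 21367 UPM with and 20118 UPM without Il5 or Il13.

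By state, Areg stood at 3692 UPM (3188 to 4253) in the 26 cells with both Il5 and Il13, 2278 UPM (2063 to 2509) in 90 cells with Il13 alone, 1769 UPM (1596 to 1955) in 108 cells with Il5 alone and 1519 UPM (1460 to 1581) in cells with neither. The level intervals of these 4 states do not overlap, but they count UMIs and leave out the uneven spread of Areg between cells. They therefore do not settle the order of the states. The shares of cells with Areg were 76.9% (56.4 to 91.0), 75.6% (65.4 to 84.0), 71.3% (61.8 to 79.6) and 59.4% (55.9 to 62.8). Their intervals all overlap apart from those of Il13 alone and neither. Csf1 leaned the other way, with a UMI in 4.46% (2.16 to 8.06) of cells with Il5 or Il13 and 7.36% (5.65 to 9.39) of cells without, intervals that overlap. By state, Csf1 was found in 1.85% (0.225 to 6.53) of cells with Il5 alone, 6.67% (2.49 to 13.9) with Il13 alone, 7.69% (0.946 to 25.1) with both and 7.36% with neither, so the lean lay in cells with Il5 alone, from 2 cells. Without thinning the Csf1 level was 19.4 UPM with and 33.9 UPM without, a ratio of 0.572 (0.374 to 0.855). Tgfb1 was found in 38.8% (32.4 to 45.6) with and 36.2% (32.8 to 39.6) without, and Hbegf in 1.34% and 2.00%. Vegfa was found in 7 of 224 and 8 of 802 cells, and another random draw of the thinning turned that order.

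**Figure D5:**
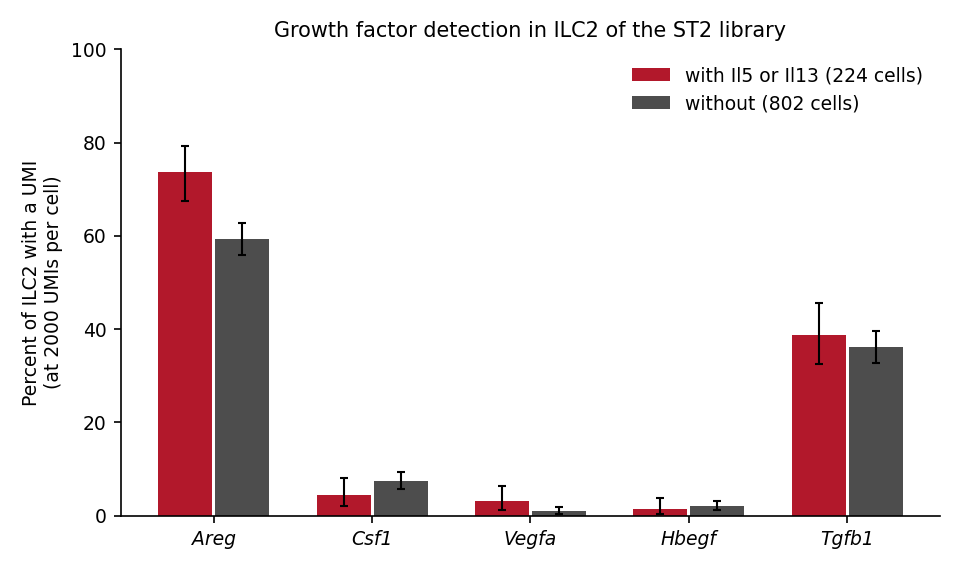
Percent of ILC2 of the IL-18R- ST2+ library with at least 1 UMI of each growth factor, with every cell thinned to 2000 UMIs, in cells with and without an Il5 or Il13 UMI. Bars start at 0 and error bars are exact 95% binomial intervals: the Areg shares were 73.7% and 59.4%, and the intervals of the other 4 members overlap.

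Tgfb1 was found more often in ILC2 with Areg than in those without: at 2000 UMIs, Tgfb1 was found in 40.4% (36.6 to 44.3) of 641 cells with Areg, against 30.6% (26.1 to 35.5) of 385 without. Csf1 was found in 5.77% (4.10 to 7.87) with and 8.31% (5.76 to 11.5) without Areg, intervals that overlap. Of 1026 thinned ILC2, 23.2% had no member, 46.8% had 1, 27.8% had 2 and 2.05% had 3. Among gamma delta T cells of the pool 63.7% had no member, and among its CD3-negative cells 33.1%. By other activation genes, Csf1 was higher in ILC2 without the costimulator Icos, at 20.2 UPM (15.6 to 25.7) with and 46.1 UPM (36.4 to 57.5) without, while Areg was 1879 UPM (1832 to 1927) with and 1385 UPM (1329 to 1442) without. Areg was likewise 2041 UPM (1985 to 2098) in cells with the chemokine gene Ccl1 and 1373 UPM (1327 to 1421) without. ILC2 were also split by Dach2, Klrg1, Il17rb and Csf2. Those values, and Csf1 by Ccl1, are not given here. ILC2 with Areg had an immediate early sum of 21706 UPM, against 17173 UPM without, and ILC2 with Csf1 17460 UPM, against 20932 UPM without. The part of these genes in the splits was not tested.

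Over those 1026 cells and 2191 genes, the genes most like Areg were Hilpda (r = 0.29), Nr4a1 (0.29), Sub1 (0.26), Gadd45b (0.25) and Nr4a3 (0.24). For Tgfb1 the first was Areg (r = 0.13). The cells share 1 library and these sparse counts give weak correlations, so they are a description. Csf1, Hbegf and Vegfa were in too few cells for this measure.

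Other genes of the same pathways were read from fixed lists, ILC2 against gamma delta T cells, where 5.7% of all measured genes were higher and 11.5% lower in ILC2, with a median log2 ratio of -0.22. Of 11 EGF family ligands 2 were measured, Areg and Hbegf. Of the receptors and proteases that shed them, 3 of 10 were measured and 0 were called: Adam8 (0.663), Adam17 (0.677) and Adam10 (0.745) lay slightly below 1 as ratios. Of the colony stimulating factors, Csf1 and Csf2 were measured of 10 and both were higher: Csf2, the granulocyte and macrophage factor, was 607.1 UPM in ILC2 and 16.1 UPM in gamma delta T cells, 37.8-fold (32.1 to 44.9). Of 14 VEGF and PDGF family genes, the co-receptor gene Nrp1 was measured, at 50.7 UPM in ILC2 and 33.2 UPM in gamma delta T cells.

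Of 25 TGF-beta pathway genes 13 were measured, with 4 higher in ILC2, 0 lower and a median log2 ratio of 0.58. The 4 included Furin, the protease that matures TGF-beta, at 1271 UPM against 268.4 UPM (4.73-fold, 4.52 to 4.96), and the integrin chain gene Itgav, part of receptors that release latent TGF-beta, at 151.7 UPM against 35.7 UPM (4.25-fold, 3.73 to 4.84). The ligand gene Bmp7 stood at 51.1 UPM against 6.74 UPM, and Nrros, which anchors latent TGF-beta, at 24.8 UPM against 12.2 UPM. Of 24 other repair mediators 5 were measured, 2 higher (Arg1, arginase, 229.5 UPM in ILC2 against 6.21 UPM; Lif, an IL-6 family cytokine, 136.6 UPM against 6.31 UPM) and 2 lower (the metalloprotease inhibitor gene Timp2, 1.39 UPM against 66.5 UPM; Mmp25, 10.3 UPM against 103.6 UPM). Lif and Arg1 were also present in CD3-negative pool cells, at 36.6 and 142.7 UPM.

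Of 20 genes of hypoxia and glycolysis 16 were measured. Against gamma delta T cells 0 were higher in ILC2 (5.7% of all measured genes) and 3 were lower (11.5%). The median log2 ratio was -0.11, and with 3 genes no excess over these shares is claimed. Against CD3-negative pool cells 1 was higher (5.25% of all measured genes) and 5 were lower (14.3%) in ILC2, with a median of -0.85, against -0.32 for all measured genes. Hk2, a hexokinase gene, stood at 64.8 UPM in ILC2 and 317.3 UPM in CD3-negative pool cells, against 346.7 UPM in gamma delta T cells. Egln3, an oxygen sensor gene, stood at 11.3 UPM in ILC2 and 79.8 UPM in CD3-negative pool cells, against 24.6 UPM in gamma delta T cells. Vhl was also lower, at 8.12 UPM in ILC2 against 20.65 UPM in gamma delta T cells. Ldha leaned the other way without being called, at 669.1 UPM in ILC2, 518.1 UPM in CD3-negative pool cells and 340.9 UPM in gamma delta T cells. Of 22 immediate early and stress genes 20 were measured, 7 higher in ILC2 than in gamma delta T cells and 3 lower (median 0.42). The higher ones included Nr4a1 at 2409 UPM against 435.5 UPM and Egr3 at 370.5 UPM against 3.102 UPM. Among the lower were Hspa1a at 4.36 UPM against 52.96 UPM and Dusp2 at 21.6 UPM against 166.7 UPM. Of 15 measured receptors that activate ILC2, 8 were higher and 1 lower, the 8 including Il1rl1, which the gate used. The lower gene was Il18r1, and the label of the ST2+ library excludes cells with IL-18R. It stood at 11.2 UPM in ILC2 of that library, against 755.1 UPM in gamma delta T cells of the pool. Of 10 measured type 2 effector genes 9 were higher, such as Ccl1 at 917.9 UPM against 2.14 UPM and Il13 at 168.5 UPM against 0.214 UPM.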

How the data were processed

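Per the labels, lung cells were sorted and sequenced with 10x Chromium 3' v3.1 chemistry. Cell Ranger 6.0.1 and build mm10 were the tool and build named, per the submitters' processing notes, and the gene annotation is not given in the sources used here. The deposited matrices hold raw UMI counts per gene and barcode, per the file headers, for 32285 genes, with no normalization. Kept barcodes had 500 or more genes and no more than 10% of UMIs from mitochondrial genes (7966923, 9000301 and 9705864 UMIs in the IL-18R- ST2+ library, the IL-18R+ pool and the library labelled all-negative). Counts were summed per group and divided by the group total (UPM). Levels have exact Poisson intervals, shares exact Clopper-Pearson intervals and ratios exact conditional binomial intervals. UMIs of 1 library are not replicate samples, so intervals cover counting error only. A group at 0 UMIs was set to a floor of 3 UMIs over the group.

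Lineage gates were 1 UMI of Il1rl1 and of Gata3 with a CD3 sum (Cd3d, Cd3e, Cd3g) of at most 1 for ILC2, and a CD3 sum of at least 2 with 1 constant chain for T cells. Cells with 2 UMIs of an outside marker list were left out of lineages. No doublet caller and no removal of ambient RNA were run, and leaving out cells of more than 3 times the median UMIs was tried instead. Thinning drew 2000 UMIs per cell without replacement (seed 1). Named genes were the 5 members and up to 4 measured genes per list with the largest log2 ratio of ILC2 over gamma delta T cells. Lists hold 167 genes, 1 of them absent from the features. The members, lists and gates were chosen with earlier results of these data known. Alternatives were TMM scaling (edgeR 4.0.16) and median-of-ratios scaling, other filters, gates, depths and seeds. The size rule was tested on simulated sums. Python 3.11.15, numpy 2.4.6 and scipy 1.17.1 were used, and promoters are from RefSeq (GRCm38.p6).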

Additional observations from a re-analysis of the deposited data

Results flagged for a closer look

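Some members differed between the pool and the library labelled all-negative in opposite directions in different lineages, by intervals that cover counting error only, and the difference between lineages was not tested. Vegfa had a ratio of pool to that library of 3.18 (1.10 to 12.5) in alpha beta T cells, from 26 and 4 UMIs, and of 0.521 (0.423 to 0.640) in CD3-negative cells. One pool cell held 17 of the 26 UMIs, and without the top cell of either library the ratio in alpha beta T cells was 1.48 (0.368 to 8.47), from 9 and 3 UMIs, and that in CD3-negative cells 0.534 (0.429 to 0.663). Hbegf had a ratio of 1.40 (1.16 to 1.69) in gamma delta T cells and 6.84 (1.73 to 59.3) in alpha beta T cells, against 0.102 (0.00221 to 0.838) in CD3-negative cells, the last from 1 and 6 UMIs.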

How the results depend on the processing

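Of 384 values recomputed under other settings, 303 stayed within the counting interval of the reported value (for gene counts, within 1.5 times), 78 moved out of it, and 3 turned direction although that interval excluded no difference. Another 16 crossed no difference where the reported interval includes it, among them Vegfa in ILC2 to alpha beta T cells (0.691, with 1.67 without deep cells and 9.03 without the 10 top cells) and Hbegf there (0.772, with 3.51 for T cells of the library labelled all-negative). TMM scaling gave Areg ratios of 8.75 (ST2+ library to pool) and 13.7 (to the library labelled all-negative), 19.7, 13.2 and 3.29 (ILC2 to gamma delta T, alpha beta T and CD3-negative pool cells), and 481 genes lower in the ST2+ library than in the pool. Median-of-ratios scaling gave 8.99 and 14.0, with 414 genes higher and 458 lower against the pool. Without cells of outside markers the 2 Areg ratios were 7.61 and 13.2, those of Csf1 70.9 and 85.8, and 40 genes were higher in the pool than in the library labelled all-negative. Means of per-cell CPM gave 7.97 (Areg) and 7.16 (Csf1) to the pool, and 15.6 for Areg in ILC2 to gamma delta T cells. Without cells of more than 3 times the median depth Areg stood at 7.61 to the pool and Csf1 at 39.3 to the library labelled all-negative. With no level minimum the genes higher and lower were 992 and 3142 (ST2+ library to pool), 1502 and 1866 (to the library labelled all-negative) and 1996 and 379 (pool to that library), and with a minimum of 50 UPM they were 157 and 356, 191 and 284, and 46 and 20.

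For ILC2 to alpha beta T cells, Areg gave 38.0 under stricter gates, 17.6 with T cells of the pool and 37.7 with those of the library labelled all-negative. It gave 23.1 with gates without Cd3g and 31.5 without the 10 top cells. Csf1, set against the floor for 0 UMIs, gave 13.1, 12.7, 6.20 and 15.6 under the same settings other than the Cd3g one. For ILC2 to gamma delta T cells, Areg gave 18.7 under stricter gates, 16.1 with pool T cells, 16.0 with outside-marker cells kept and 23.6 without the 10 top cells, and Hbegf 0.170 and 0.146 under the first and last. For ILC2 to CD3-negative pool cells, Areg gave 3.49 with outside-marker cells kept and 4.15 without the 10 top cells, Csf1 4.07 with them kept, and Hbegf turned to 0.894 with them kept. In the library labelled all-negative the CD3-negative gate gave 270.8 UPM of Areg, 0 of Csf1, 315.4 of Vegfa and 9.23 of Hbegf. The difference in share with and without Il5 or Il13 (14.3 percentage points for Areg) ranged from 11.4 to 20.1 for Areg. That of Vegfa (2.13) turned to -0.244 at 1000 UMIs and to -0.876 with seed 2, and was 0.108 with seed 4. That of Tgfb1 (2.68) was 12.0 without thinning and -1.54 at 1000 UMIs, and that of Csf1 (-2.89) was 0.193 with Il13 alone. Settings chosen after seeing the data were gates without Cd3g, outside-marker cells kept, the 10 top cells, the top cell of a lineage, deep cells and the gate in the other library. The cause of these moves was not tested.

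No paired analysis was possible because each group is 1 library with no replicate number. CD3-negative pool cells with no UMI of any T cell receptor constant chain numbered 2, too few for a value. Members under 20 UPM on both sides (Vegfa in ILC2 and T cells, Csf1 outside ILC2) are limited by depth. In the ST2+ library 233 cells with Il1rl1 missed the ILC2 gate through 2 or more CD3 UMIs, mostly Cd3g (787 against 79 of Cd3d and Cd3e).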
